A study of Mus musculus with 12 samples.

Results

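Cells of the immune system take up antibody-coated material and dying cells through separate sets of surface receptors, and 10 genes of these sets were followed here in the mouse retina after a rise in intraocular pressure (IOP). Listed by name as members of these families, they are the activating Fc gamma receptors Fcgr1, Fcgr3 and Fcgr4, the inhibitory Fc gamma receptor Fcgr2b, the common gamma chain Fcer1g, the TAM receptors Axl and Mertk, the TAM ligands Gas6 and Pros1, and the bridging protein Mfge8. All 10 were found among the 24340 rows of the expression table, and all 10 belonged to the 18509 genes above 0 in at least 1 library, which were tested. Each also reached 1 FPKM (fragments normalised to transcript length and library size) in 3 or more of the 12 libraries. Fcgr1 and Fcgr4 did so in 7 libraries, 6 of them IOP retinas, and Fcgr2b in 9, while the other members did so in all 12.

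Fc gamma receptors bind the constant part of IgG on coated particles. The activating receptors signal through the gamma chain encoded by Fcer1g and drive engulfment and the oxidative burst, whereas Fcgr2b carries an inhibitory motif that dampens this signal. The TAM receptor kinases (Tyro3, Axl and Mertk) recognise dying cells through Gas6 and Pros1, which hold on to phosphatidylserine exposed on the dying cell; Gas6 can bind each TAM receptor and Pros1 binds Tyro3 and Mertk. Mfge8 links phosphatidylserine to integrins in a similar way. In the eye Mertk is best known in the retinal pigment epithelium, where it is needed for the daily uptake of shed photoreceptor tips, and microglia carry Fc and TAM receptors.

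The 6 mice were all p16-3MR animals aged 12 to 16 weeks, and each gave a control retina and an IOP retina. In this strain the regulatory region of p16 drives a fusion of Renilla luciferase, a red fluorescent protein and a viral thymidine kinase, so that ganciclovir (GCV) kills cells in which the transgene is active. Control and IOP retinas alike carried the transgene. One eye had been kept at 85 to 90 mm Hg for 60 min, and the fellow eye of the same animal was the control. Mice 1, 2 and 5 were injected daily with GCV at 25 mg/kg (groups control+GCV and IOP+GCV) and mice 3, 4 and 6 were mock treated (groups control and IOP), with 3 retinas in each of the 4 groups, taken on day 3. The comparisons asked what the rise in IOP did to these genes and whether GCV altered it.

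Estimated depth lay between 3890000 and 8960000 fragments per library, and the IOP retina of mouse 6 was the shallowest (the others started at 6720000). Summed rod markers stood at 36640 to 68240 FPKM and summed retinal ganglion cell markers at 264 to 2046 FPKM, so the libraries carried the markers of the labelled tissue. The spread between replicates was larger after IOP elevation: the median SD over 12910 genes was 0.34 on the log2(FPKM + 1) scale in the IOP group and 0.20 in IOP+GCV, against 0.12 and 0.14 in the control groups. Summed lens markers reached 6669 FPKM and were higher in the IOP eye of 5 of 6 mice: they lay at 3274 to 6586 FPKM in 5 of the 6 IOP retinas, at 109 FPKM in that of mouse 3, and at the highest level in the control retina of mouse 1.

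Fcgr2b, Fcgr4, Fcgr3 and Fcer1g lie close together on chromosome 1 (GRCm38.p6), at 170960558 to 170976071, 171018926 to 171029761, 171051169 to 171065915 and 171229572 to 171234349. Fcgr4 is on the plus strand and the other genes of this group are on the minus strand. Fcgr1 is on the minus strand of chromosome 3 (96282909 to 96293969). Of the TAM group, Axl (25756500 to 25788924) and Mfge8 (79133768 to 79149060) are on the minus strand of chromosome 7, Gas6 on the minus strand of chromosome 8 (13465374 to 13494535), Pros1 on the plus strand of chromosome 16 (62854307 to 62929346) and Mertk on the plus strand of chromosome 2 (128698915 to 128803162). Gas6 overlaps Tmem255b on the opposite strand. Fcgr3 and Fcgr2b are close relatives: 12.8% of the 50-base words of Fcgr3 transcripts (166 of 1298) also occur in Fcgr2b, which makes up 4.89% of the words of Fcgr2b, so a part of their reads could have been split between them. No other pair of the Fc genes and no pair of TAM receptors shared any such word.

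The 250 bases before the annotated start (RefSeq, GRCm38.p6) were searched on both strands for 4 motifs: the PU.1 box GAGGAA, bound by a factor of the myeloid lineage, the STAT element TTCNNNGAA, the interferon response element (GAAA, any 2 bases, GAAA) and the AP-1 element TGANTCA. The windows of the activating receptors and of Pros1 are shown because these genes rose and held the matches nearest to the start, given in capitals. The Fcgr1 window is chr3:96293970-96294219 (minus strand), that of Fcgr3 chr1:171059404-171059653 (minus strand, before the start of a shorter transcript inside the gene), that of Fcgr4 chr1:171018676-171018925 (plus strand) and that of Pros1 chr16:62854057-62854306 (plus strand).
Fcgr1: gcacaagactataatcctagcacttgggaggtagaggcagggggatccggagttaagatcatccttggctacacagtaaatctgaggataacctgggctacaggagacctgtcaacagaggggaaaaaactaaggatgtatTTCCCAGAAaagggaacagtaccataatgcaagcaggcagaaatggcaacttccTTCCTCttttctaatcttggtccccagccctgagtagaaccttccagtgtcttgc
Fcgr3: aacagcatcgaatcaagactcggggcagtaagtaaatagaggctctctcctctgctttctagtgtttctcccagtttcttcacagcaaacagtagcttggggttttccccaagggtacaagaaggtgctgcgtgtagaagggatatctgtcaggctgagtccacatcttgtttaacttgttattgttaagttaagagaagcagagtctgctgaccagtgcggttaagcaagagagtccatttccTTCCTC
Fcgr4: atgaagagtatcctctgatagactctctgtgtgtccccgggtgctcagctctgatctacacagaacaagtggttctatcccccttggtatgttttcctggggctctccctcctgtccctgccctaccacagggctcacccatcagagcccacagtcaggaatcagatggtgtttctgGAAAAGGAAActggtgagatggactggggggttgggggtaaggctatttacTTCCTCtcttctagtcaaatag
Pros1: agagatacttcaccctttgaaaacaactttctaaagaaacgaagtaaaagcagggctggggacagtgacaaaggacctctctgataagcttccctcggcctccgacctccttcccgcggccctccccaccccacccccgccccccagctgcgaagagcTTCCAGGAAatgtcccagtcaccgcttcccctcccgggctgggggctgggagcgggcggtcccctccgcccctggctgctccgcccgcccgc

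The PU.1 box, read as TTCCTC from the opposite strand, ended 50, 1 and 17 bases before the start of Fcgr1, the shorter Fcgr3 transcript and Fcgr4. The bases before the outer start of the Fcgr3 gene were not searched. In the other window listed for Fcgr3, from a neighbouring start, the same box lay 10 bases away. It was also present farther from the start in Axl (125 bases) and Mfge8 (215 bases), and 23.3% of 32851 promoter windows of this length held it. Fcgr1 and Pros1 held a STAT element (7.02% of windows), and Fcgr4 held an interferon response element (2.98% of windows). The AP-1 element (6.75% of windows) was in none of the 10 windows, and the windows of Fcgr2b, Fcer1g, Mertk and Gas6 held none of the 4 motifs. These matches describe the letters of the windows and say nothing of binding.

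In control retinas the bridging proteins were by far the most abundant of the 10 genes per length. The 6 control retinas held 194 to 260 FPKM of Mfge8 and 92.1 to 113 FPKM of Gas6, and these ranges overlapped neither each other nor any other member. Fcer1g followed at 3.34 to 16.8 FPKM, a range shared with Fcgr3 (2.28 to 5.52), Axl (2.72 to 4.51) and Pros1 (2.93 to 3.43), which could not be ordered among themselves. Mertk (1.02 to 1.88) and Fcgr2b (0.708 to 2.50, which reached into the range of Fcgr3) came next. Fcgr4 (0.304 to 1.16) and Fcgr1 (0.0547 to 1.14) held the lowest values, though their ranges overlapped those of Mertk and Fcgr2b. In IOP retinas Fcer1g ran from 35.6 to 380 FPKM, a range that overlapped those of Gas6 and Mfge8.

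**Figure D1:**
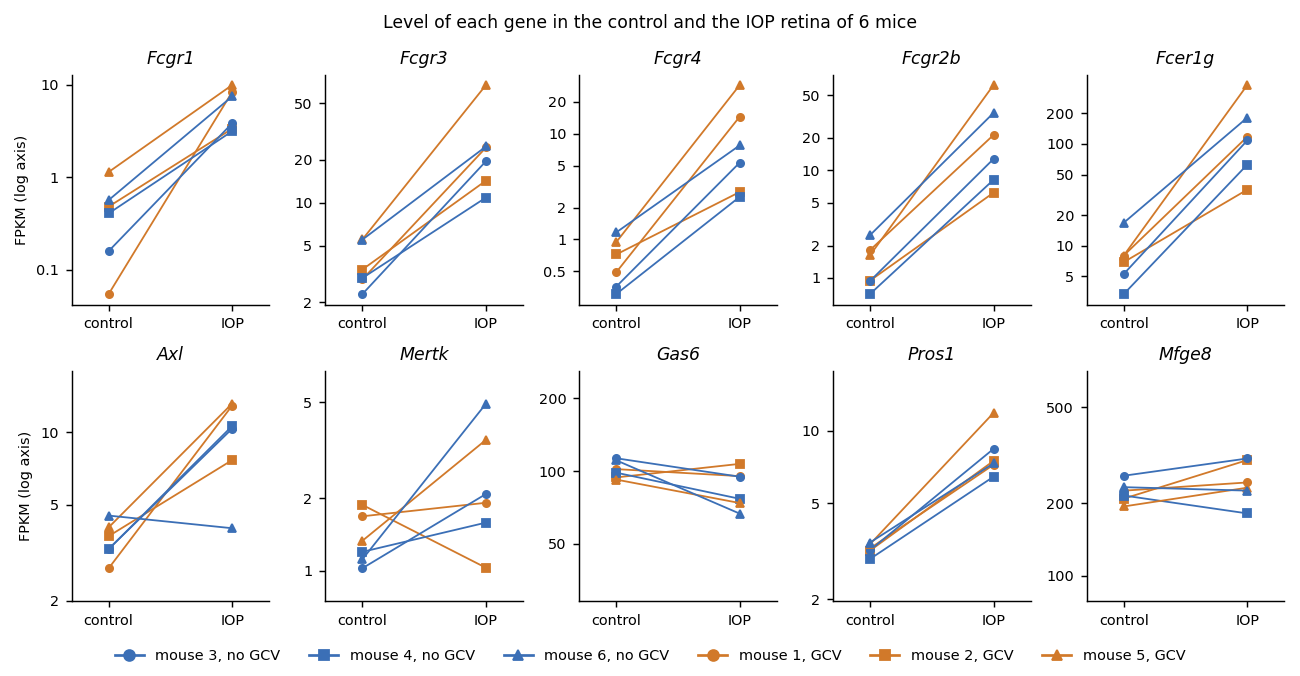
FPKM of the 10 genes on log axes, with the control and the IOP retina of each mouse joined by a line (blue, no GCV; orange, GCV; n = 6 mice). The 5 Fc genes and Pros1 rise in every mouse with no overlap between eyes, Axl is higher in 5 mice and slightly lower in mouse 6, Gas6 is lower in 5 of 6 mice and Mfge8 higher in 4 of 6, both with overlapping ranges.

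After IOP elevation the 5 Fc genes rose, as did Axl and Pros1 of the 5 TAM and bridging genes. Over both treatments, 7 of the 10 genes were called higher in IOP retinas by limma (adjusted p under 0.05 over all 18509 genes), namely all 5 Fc genes, Axl and Pros1, and none was called lower; 6.76% of all tested genes were called higher in this comparison. The median log2 fold change of the 10 was 1.68, against 0.0089 for all tested genes. Mertk, Gas6 and Mfge8 did not pass the test. All 6 IOP retinas stood above all 6 control retinas for 6 members (the 5 Fc genes and Pros1), and the same held for 5.47% of all tested genes. The value was higher in the IOP eye of every mouse for the same 6 members, as it was for 10.7% of all tested genes.

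Fcgr1 encodes the high-affinity IgG receptor. In the mice without GCV (3, 4 and 6, in this order throughout) it stood at 0.159, 0.408 and 0.567 FPKM in the control retinas and at 3.85, 3.16 and 7.51 FPKM in the IOP retinas. In the GCV-treated mice (1, 2 and 5) it went from 0.0547, 0.482 and 1.14 to 8.40, 3.36 and 9.97 FPKM. Every IOP retina lay above every control retina. The averaged rise was 2.19 on the log2(FPKM + 1) scale (SE 0.28, limma adjusted p = 0.00144), a scale that understates changes of genes this low. The control values rest on few reads, about 0.966 to 18.6 fragments per library, so the fold within a single mouse is not given.

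Fcgr3, a low-affinity receptor, was the most abundant activating receptor. It rose from 2.28, 2.96 and 5.50 to 19.6, 10.9 and 24.8 FPKM without GCV, and from 2.89, 3.39 and 5.52 to 24.4, 14.3 and 67.2 FPKM with GCV. The IOP retina of mouse 5 was the highest, well apart from the others, and the groups did not overlap. Over both treatments the log2 fold change was 2.35 (SE 0.36, limma adjusted p = 0.00377).

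Fcgr4, a receptor of monocytes, macrophages and neutrophils, went from 0.357, 0.304 and 1.16 to 5.33, 2.53 and 7.76 FPKM without GCV. With GCV it went from 0.487, 0.720 and 0.941 to 14.5, 2.81 and 28.9 FPKM. The IOP values of the GCV-treated mice thus spread over a wide range, with mouse 2 low and mice 1 and 5 high. Averaged over both treatments the log2 fold change was 2.36 (SE 0.45, limma adjusted p = 0.0112). The call was lost without both eyes of mouse 1 (adjusted p = 0.0552) and without both eyes of mouse 3 (adjusted p = 0.0689).

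Fcgr2b, the inhibitory receptor, had a larger fitted rise on this scale than the activating receptors, a difference between genes that was not tested. The scale compresses the change of lower genes such as Fcgr1 and Fcgr4, so this order may depend on it. Fcgr2b went from 0.936, 0.708 and 2.50 to 12.8, 8.18 and 34.2 FPKM without GCV. In the GCV-treated mice the control retinas held 1.81, 0.944 and 1.62 FPKM and the IOP retinas 21.3, 6.21 and 62.2 FPKM. Mouse 5 was again the highest and mouse 2 the lowest, and all IOP retinas were above all controls. With both treatments averaged, the log2 fold change was 3.01 (SE 0.50, limma adjusted p = 0.00609).

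Fcer1g, the signaling chain shared by the activating receptors, had the largest fitted change of the 10 genes on the log2(FPKM + 1) scale, which compresses the change of lower genes such as Fcgr1; with a pseudocount of 0.1 the averaged values were 3.95 for Fcer1g and 3.58 for Fcgr1. The control retinas held 5.27, 3.34 and 16.8 FPKM and the IOP retinas 108, 62.7 and 181 FPKM without GCV. With GCV the values were 8.0, 6.89 and 8.0 FPKM in controls and 118, 35.6 and 380 FPKM in IOP retinas. The lowest IOP value was above the highest control value, which came from mouse 6. On average the log2 fold change was 3.78 (SE 0.55, limma adjusted p = 0.00275), a 13.8-fold rise of FPKM + 1.

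Between the eyes of a mouse, some ratios of Fc genes moved in a common direction and others did not. The ratio of Fcgr3 to Fcgr2b was lower in the IOP eye of 6 of 6 mice, at 1.20 ± 0.42 against 2.94 ± 1.08 in controls without GCV (SD, n = 3) and 1.51 ± 0.69 against 2.86 ± 1.10 with GCV; these ratios carry no test, and the ranges over all mice overlapped (1.60 to 4.18 in control eyes, 0.726 to 2.30 in IOP eyes). Since 12.8% of the 50-base words of Fcgr3 also occur in Fcgr2b, some reads could have been split between them. The summed activating receptors over Fcgr2b were lower in 5 of 6 mice, and mouse 1 went the other way, from 1.89 to 2.22. Fcgr4 over Fcgr2b had no common direction and was higher in the IOP eye of 2 of 6 mice. Fcer1g over the summed activating receptors was higher in 6 of 6 mice and rose from 1.71 ± 0.72 to 4.03 ± 0.43 without GCV and from 1.63 ± 0.65 to 2.60 ± 0.93 with GCV, although in mouse 1 it only moved from 2.33 to 2.49.

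**Figure D2:**
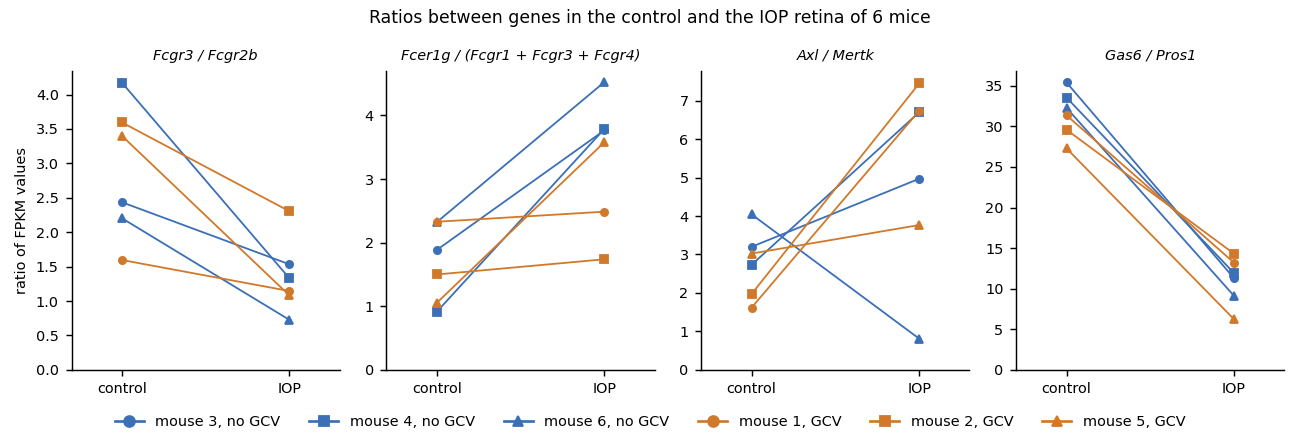
Ratios of FPKM values between genes in the control and the IOP retina of each of 6 mice (blue, no GCV; orange, GCV). Fcgr3 / Fcgr2b and Gas6 / Pros1 fall in 6 of 6 mice, Fcer1g over the activating receptors rises in 6 of 6, and Axl / Mertk rises in 5 and falls in mouse 6.

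Of the TAM receptors Axl passed the test and Mertk did not; the difference between them was not tested. Axl, the receptor that is typically raised in inflamed tissue, went from 3.28, 3.27 and 4.51 to 10.4, 10.6 and 4.0 FPKM without GCV, and from 2.72, 3.70 and 4.03 to 12.9, 7.67 and 13.2 FPKM with GCV. Of the 6 mice 5 had the higher value in the IOP eye, by 2.07- to 4.74-fold, and the IOP retina of mouse 6 lay within the range of the controls. The averaged log2 fold change was 1.16 (SE 0.23, limma adjusted p = 0.0136). Without the IOP retina of mouse 6, the library of lowest depth, it was 1.36 (adjusted p = 0.00173). The adjusted p was 0.0485 with the mouse as a block, and it was 0.0623, 0.0785 and 0.0602 without both eyes of mouse 1, 3 or 5.

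Mertk, the receptor used for steady clearance of dying cells and outer segments, did not pass the test. It was at 1.02, 1.20 and 1.12 FPKM in the control retinas and 2.08, 1.58 and 4.94 FPKM in the IOP retinas without GCV, and at 1.68, 1.88 and 1.33 against 1.91, 1.03 and 3.49 FPKM with GCV. Mouse 2 was lower in the IOP eye, the other 5 mice were higher, and the control and IOP ranges overlapped. The averaged log2 fold change was 0.48 (SE 0.23, limma adjusted p = 0.198). The same IOP retina of mouse 6 that was lowest for Axl was the highest for Mertk, so that Axl over Mertk went from 4.04 to 0.810 in this mouse while it rose in the other 5 mice, for example from 1.62 to 6.74 in mouse 1 and from 1.97 to 7.45 in mouse 2. Tyro3, the third TAM receptor, is not among the 10 genes and is named with its values known; it was higher in the IOP eye of 3 of 6 mice, with an averaged log2 fold change of 0.0048 (SE 0.19, adjusted p = 0.980).

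Among the ligands, Pros1 rose and Gas6 did not. Pros1 (protein S) stood at 3.19, 2.93 and 3.43 FPKM in the control retinas and 8.40, 6.44 and 7.32 FPKM in the IOP retinas without GCV. With GCV it was at 3.25, 3.18 and 3.38 and at 7.22, 7.49 and 11.8 FPKM. The control values lay within a narrow band and every IOP value was well above it. The averaged log2 fold change was 1.09 (SE 0.13, limma adjusted p = 0.00103), the smallest adjusted p of the 10 genes although the fold was among the smaller ones.

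Gas6 was at 113, 98.4 and 111 FPKM in control and 94.7, 76.7 and 66.5 FPKM in IOP retinas without GCV, and at 102, 94.1 and 92.1 against 95.2, 107 and 73.6 FPKM with GCV. It was lower in the IOP eye of 5 of 6 mice, with mouse 2 higher, and the ranges overlapped. The averaged log2 fold change of -0.26 (SE 0.11) had an unadjusted p of 0.0385 and did not pass the limma test after adjustment (adjusted p = 0.141). The ratio of Gas6 to Pros1 fell in 6 of 6 mice with no overlap between eyes, from 33.7 ± 1.57 to 10.8 ± 1.47 without GCV and from 29.4 ± 2.05 to 11.2 ± 4.38 with GCV (SD, n = 3). Even in the IOP retinas Gas6 remained the more abundant ligand, by 6.22-fold at the least.

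Mfge8 showed the smallest averaged change of the 10 genes. It was at 260, 216 and 233 FPKM in control and 307, 182 and 226 FPKM in IOP retinas without GCV, and at 226, 209 and 194 against 244, 302 and 232 FPKM with GCV. Higher values in the IOP eye were seen in 4 of 6 mice and the ranges overlapped throughout. On average the log2 fold change was 0.14 (SE 0.13, limma adjusted p = 0.518). Mfge8 over Gas6 was higher in the IOP eye of 6 of 6 mice, from 2.20 ± 0.10 to 3.00 ± 0.55 without GCV and from 2.18 ± 0.07 to 2.85 ± 0.30 with GCV.

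Within each treatment, with 3 retinas against 3, fewer of the changes passed the test. Without GCV, 3 of the 10 genes were called higher by limma: Fcgr1 (log2 fold change 2.02, SE 0.40, adjusted p = 0.0360), Fcer1g (3.79, SE 0.77, adjusted p = 0.0413) and Pros1 (1.00, SE 0.18, adjusted p = 0.0281); 1.42% of all tested genes were called higher here. With the mouse as a block none of the 3 passed (adjusted p = 0.0732, 0.0559 and 0.0890). Leaving out any single library of the 2 groups ended all 3 calls (adjusted p from 0.0534 to 0.172), except that all were kept without the IOP retina of mouse 4 (adjusted p = 0.0153, 0.0175 and 0.0139). Fcer1g also missed the threshold without the variance trend, and Pros1 in a fit on these 2 groups alone. Fcgr3 (2.08, adjusted p = 0.0825), Fcgr2b (2.86, adjusted p = 0.0850), Fcgr4 (1.89, adjusted p = 0.181), Axl (0.90, adjusted p = 0.206) and Mertk (0.78, adjusted p = 0.246) had higher means in IOP retinas and did not pass the limma test, nor did Gas6 (-0.45, adjusted p = 0.197) or Mfge8 (-0.02, adjusted p = 0.991).

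With GCV, 4 of the 10 genes were called higher by limma, against 1.65% of all tested genes. They were Fcgr1 (2.36, SE 0.40, adjusted p = 0.0162), Fcgr3 (2.63, SE 0.51, adjusted p = 0.0308), Fcer1g (3.78, SE 0.77, adjusted p = 0.0385) and Pros1 (1.18, SE 0.18, adjusted p = 0.0128). With the mouse as a block Fcgr1, Fcgr3 and Fcer1g passed (adjusted p = 0.0439, 0.0369 and 0.0467) and Pros1 did not (adjusted p = 0.0550). Fitted on these 2 groups alone, none of the 10 was called. All 4 calls were kept without the IOP retina of mouse 2; Pros1 was also kept without the IOP retina of mouse 1 or 5 and Fcgr1 without the control retina of mouse 5, and the remaining fits with 1 library left out ended the call (adjusted p from 0.0529 to 0.145). Fcgr4 (2.83, adjusted p = 0.0543), Fcgr2b (3.16, adjusted p = 0.0554) and Axl (1.42, adjusted p = 0.0587) were just outside the threshold, and Mertk (0.19, adjusted p = 0.834), Gas6 (-0.08, adjusted p = 0.861) and Mfge8 (0.30, adjusted p = 0.428) were far from it.

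**Figure D3:**
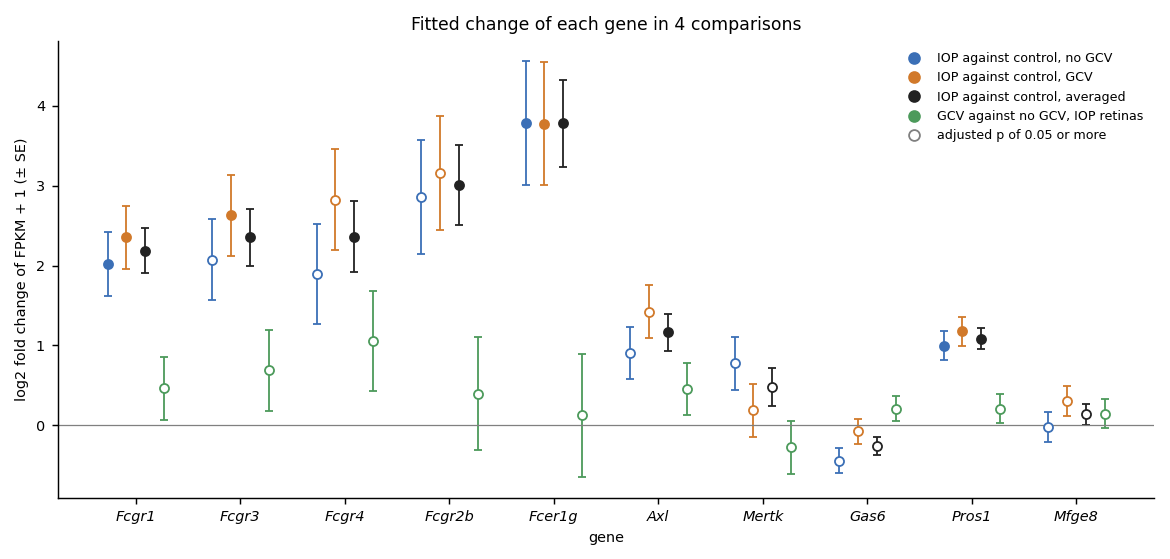
Log2 fold change of FPKM + 1 with its SE for the 10 genes, for IOP against control without GCV (blue), with GCV (orange) and averaged (black), and for GCV against no GCV in IOP retinas (green); filled points have an adjusted p under 0.05. The averaged fit fills 7 points, the fits within a treatment 3 and 4, and no green point is filled.

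GCV did not detectably alter the level or the IOP response of any of the 10 genes. The difference between the IOP effects with and without GCV ran from -0.59 for Mertk (SE 0.47) to 0.93 for Fcgr4 (SE 0.89) on the log2 scale, and none of the 10 passed the limma test (smallest unadjusted p = 0.124, for Gas6). No gene of the table did either (0% called, with 358 genes at an unadjusted p under 0.05). The SEs show what could have been seen. For Pros1 the difference was 0.18 (SE 0.26). For Fcer1g it was -0.01 with an SE of 1.09, so that even a 2-fold difference in either direction would have been within this SE. With the mouse as a block the SE for Fcer1g was 0.76, less than a 2-fold difference.

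GCV-treated and mock-treated IOP retinas were also compared directly, across mice. Fcgr4 was the highest, with a log2 fold change of 1.06 (SE 0.63, limma unadjusted p = 0.123), and Mertk the lowest, at -0.28 (SE 0.33). A higher mean with GCV was seen in 9 of the 10 genes and in 9502 of all 18509 tested genes. Without the IOP retina of mouse 4 it was seen in 6 of the 10. None of the 10 passed the limma test. Here 0% of all tested genes were called and 774 had an unadjusted p under 0.05, none of them among the 10. In control retinas the differences ran from -0.17 (Mfge8) to 0.31 (Mertk), again with 0% of genes called, 295 at an unadjusted p under 0.05 and none of these among the 10. The 4 groups are shared between these comparisons, so their values are not independent of each other.

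Markers of several cell types moved with the Fc genes. Summed over 12 microglial markers, the level was 44.8 to 57.2 FPKM in control and 96.2 to 124 FPKM in IOP retinas, and 52.6 to 56.8 against 85.6 to 232 FPKM with GCV, and 7 of the 12 were called higher and 1 lower in the averaged comparison, in which 6.76% of all tested genes were called higher and 5.44% lower; the marker counts that follow are read against the same shares. The 10 measured markers of infiltrating monocytes and macrophages summed to 9.29 to 47.9 FPKM in control and 319 to 719 FPKM in IOP retinas, and to 7.90 to 23.2 against 162 to 2476 FPKM with GCV. Of these, 7 were called higher, and Chil3 was at 0 in all control retinas. The 9 measured neutrophil markers went from 1.37 to 5.60 FPKM in sum to 19.5 to 118 FPKM, and from 2.47 to 17.6 FPKM to 32.9 to 403 FPKM with GCV, with 3 called higher. The 12 lymphocyte markers were at a low level, at 0.0375 to 0.806 FPKM in sum over the 6 control retinas and 1.36 to 3.30 FPKM over the 6 IOP retinas, with the IOP eye higher in 6 of 6 mice and 2 markers called higher; Cd3d, Nkg7, Ncr1 and Klrb1c were at 0 in all control retinas. The 8 markers of astrocytes and reactive glia summed to 109 to 239 FPKM in control and 577 to 683 FPKM in IOP retinas, and to 140 to 159 against 643 to 1705 FPKM with GCV, with 6 called higher and 1 lower. In the opposite direction, 11 of 13 retinal ganglion cell markers were called lower and none higher (median log2 fold change -1.19). The IOP retina of mouse 5 had the highest sums of the microglial, macrophage, neutrophil, lymphocyte and reactive glia lists. It also had the highest values of all 5 Fc genes. The Mueller glia sum was highest in the IOP retina of mouse 1, at 3823 FPKM against 2800 FPKM in that of mouse 5. The IOP retina of mouse 2 had the lowest microglial and macrophage sums among IOP retinas. Without both eyes of mouse 5 all 5 Fc genes were still called in the averaged comparison. In whole retinas, more cells of a type and more RNA per cell cannot be told apart, and the part of these cells in the results was not tested.

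**Figure D4:**
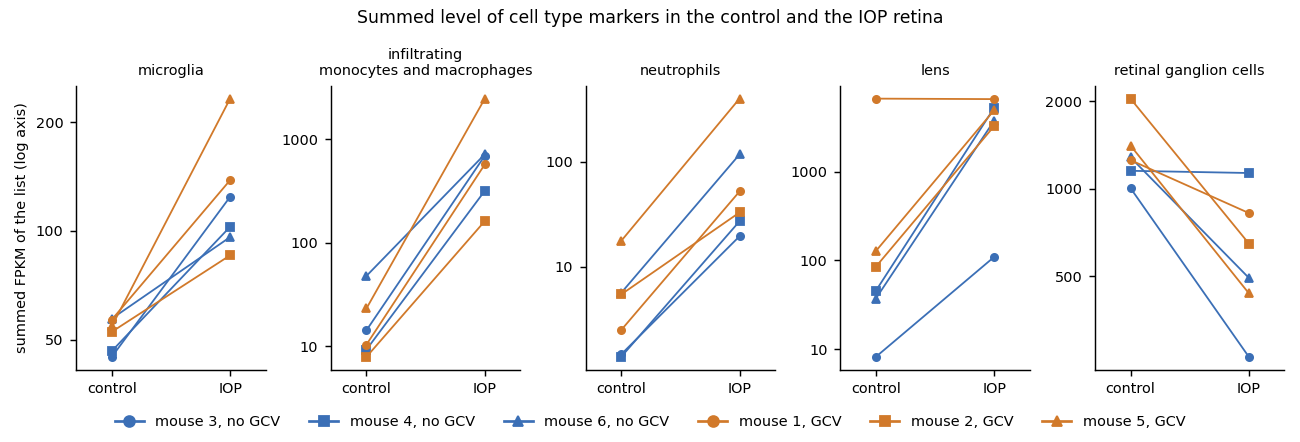
Summed FPKM of marker lists (log axes) in the control and the IOP retina of each of 6 mice (blue, no GCV; orange, GCV). Microglial, macrophage and neutrophil sums rise in every mouse, with the IOP retina of mouse 5 highest; retinal ganglion cell sums are lower in the IOP eye of every mouse, though in mouse 4 only from 1155 to 1135 FPKM, and lens sums rise in 5 mice and are high in both eyes of mouse 1.

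Set against the summed microglial markers, the members fell into separate groups. Each of the 5 Fc genes was higher per microglial marker sum in the IOP eye of 6 of 6 mice; Fcer1g went from 0.161 ± 0.117 to 1.12 ± 0.67 without GCV and from 0.140 ± 0.008 to 0.967 ± 0.617 with GCV. Pros1 kept pace with the microglial sum: the ratio was 0.0648 ± 0.0058 and 0.0688 ± 0.0068 without GCV and 0.0599 ± 0.0025 and 0.0636 ± 0.0207 with GCV, and it was higher in the IOP eye of 2 of 6 mice. Axl over the microglial sum was higher in 4 of 6 mice and Mertk in 1 of 6, the exception being mouse 6. For Gas6 and Mfge8 the ratio was lower in the IOP eye of every mouse. These are ratios of FPKM sums and carry no test. Their direction depends on the list used as the base. The summed monocyte and macrophage markers rose by a larger factor than Fcgr3, Fcgr4, Fcgr2b and Fcer1g in every mouse. That sum went from 23.2 to 2476 FPKM in mouse 5 and from 47.9 to 719 FPKM in mouse 6. Fcgr1 rose by a larger factor than that sum in mouse 1.

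Retinal pigment epithelium, a tissue that can adhere to a dissected retina and expresses Mertk, varied widely within groups. Its 10 markers summed to 42.7 to 214 FPKM in control, 30.1 to 232 FPKM in IOP, 23.3 to 109 FPKM in control+GCV and 28.6 to 66.9 FPKM in IOP+GCV retinas, and the sum was higher in the IOP eye of 2 of 6 mice. In mouse 6, whose IOP retina had the highest Mertk level, the sum was 214 FPKM in the control and 132 FPKM in the IOP retina. The part of pigment epithelium in the Mertk values was not tested. Of 15 lens markers 9 were called higher in the averaged comparison (6.76% of all tested genes), and the part of lens tissue in the results was not tested.

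The wider Fc receptor pathway moved in the same direction as the Fc genes. Of 28 genes that partner with Fc receptors or relay their signal, 23 were called higher and none lower in the averaged comparison by limma (6.76% of all tested genes were called higher), with a median log2 fold change of 1.49; 3 were called within the mice without GCV (1.42% of all genes) and 4 within those with GCV (1.65%). Tyrobp, an adaptor related to the gamma chain, had the smallest adjusted p and the highest mean level of the list: it was at 6.03 to 13.5 FPKM in control and 47.3 to 249 FPKM in IOP retinas (log2 fold change 3.17, SE 0.37, adjusted p = 0.000955). Fcamr, a receptor for IgA and IgM, rose from 0.659 to 1.60 FPKM to 3.04 to 7.72 FPKM (1.46, SE 0.18, adjusted p = 0.00126). Cyba (2.40, SE 0.35, adjusted p = 0.00278) and Ncf1 (2.61, SE 0.41, adjusted p = 0.00475), subunits of the phagocyte NADPH oxidase, rose as well, and Cyba was second in level with 9.12 to 13.2 FPKM in control and 30.6 to 162 FPKM in IOP retinas. None of the 28 was called for the interaction or for GCV.

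Receptors for apoptotic cells other than the members showed a mixed picture. Of 24 measured genes 9 were called higher and none lower (median 0.42), where 6.76% of all tested genes were called higher, with 2 called without GCV (1.42% of all genes) and 1 with GCV (1.65%). Trem2, a lipid-sensing receptor of microglia that signals through Tyrobp, went from 1.84 to 4.18 FPKM in control to 8.69 to 34.8 FPKM in IOP retinas (2.60, SE 0.35, limma adjusted p = 0.00187). Itgb2 (2.85, SE 0.46, adjusted p = 0.00495) and Itgam (2.37, SE 0.44, adjusted p = 0.0106), which together form complement receptor 3, and Havcr2 (0.88, SE 0.16, adjusted p = 0.0101), a phosphatidylserine receptor also known as Tim-3, rose. The most abundant genes of the list were Scarb1, a scavenger receptor that did not pass the test (0.09, SE 0.10, adjusted p = 0.589), and Itgb5, the integrin partner through which Mfge8 is bound, which rose from 10.4 to 14.7 FPKM in control to 13.8 to 24.7 FPKM in IOP retinas (0.52, SE 0.14, adjusted p = 0.0379).

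Of 20 bridging molecules and signals shown by dying or living cells, 9 were called higher and none lower (median 0.47), against 6.76% of all tested genes called higher. Within the mice without and with GCV 5 and 6 were called, against 1.42% and 1.65% of all genes. The chains of complement C1q, which tags debris for uptake, had the smallest adjusted p of the list. C1qa rose from 13.3 to 24.0 FPKM in control to 70.1 to 137 FPKM in IOP retinas (2.52, SE 0.19, limma adjusted p = 0.000173), and C1qb (2.77, SE 0.27) and C1qc (2.58, SE 0.25) rose with it (adjusted p = 0.000417 for both). Cd47, a signal that restrains uptake, rose too, from 12.7 to 16.3 FPKM to 26.1 to 46.6 FPKM (1.12, SE 0.14, adjusted p = 0.00127). Tulp1 and Vtn, the most abundant genes of the list, stood at 889 to 1259 and 693 to 962 FPKM in control retinas and did not pass the test (-0.04, SE 0.21, adjusted p = 0.922 and 0.00079, SE 0.18, adjusted p = 0.998).

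The engulfment machinery had the lowest median of the 4 lists in the averaged comparison, a difference between lists that was not tested. Of 29 measured genes 7 were called higher and 1 lower (median 0.12), where 6.76% of all tested genes were called higher and 5.44% lower. Within the treatments 2 were called higher without GCV (1.42% of all genes) and 3 with GCV (1.65%). Socs3, a brake on cytokine signaling that TAM receptors can induce, rose from 1.48 to 3.27 FPKM to 12.5 to 45.1 FPKM (2.79, SE 0.27, limma adjusted p = 0.000417), and Cd68, a lysosomal protein of phagocytes, from 2.65 to 6.47 FPKM to 20.1 to 293 FPKM (4.14, SE 0.57, adjusted p = 0.00231). The leukocyte GTPase Rac2 (2.21, SE 0.38, adjusted p = 0.00704) and its activator Dock2 (1.49, SE 0.29, adjusted p = 0.0136) also rose. Elmo1, a partner of Dock proteins, was the single gene called lower (-1.47, SE 0.38, adjusted p = 0.0371), and it is named outside the rule as the exception of its list. Lamp1 and Rab7, general lysosomal and endosomal genes and the most abundant of the list, did not pass the test (0.48, SE 0.17, adjusted p = 0.0865 and -0.10, SE 0.21, adjusted p = 0.787).

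**Figure D5:**
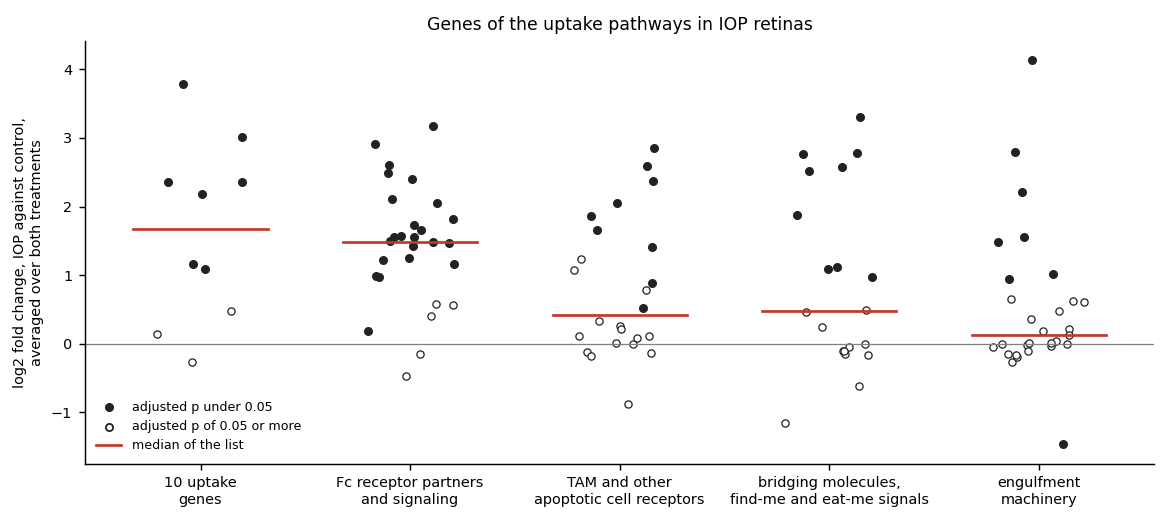
Log2 fold change of FPKM + 1, IOP against control averaged over both treatments, for each of the 10 genes and each measured gene of 4 pathway lists; filled points have an adjusted p under 0.05 and the red line is the median. The medians fall from 1.68 for the 10 genes and 1.49 for Fc receptor partners to 0.42, 0.47 and 0.12 for the other lists.

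Genes were also ranked by how closely their difference between the eyes followed that of a member over the 6 mice, as the root mean square gap on the log2 scale, among the 12907 genes whose mean over the libraries reached 1 FPKM. Closest to Fcer1g were H2-Ab1 (0.45), Wfdc17 (0.46) and Mpeg1 (0.68), each with its largest difference in mouse 5 and its smallest in mouse 2, as in Fcer1g. Closest to Axl were Dhx58 (0.24), Tmem176a (0.26) and Tmem176b (0.31), which were all near 0 in mouse 6 (-0.10, -0.04 and 0.02) and 0.94 or more in every other mouse. Closest to Mertk were Rnls (0.16), Arpc2 (0.17) and Rbms1 (0.20), each highest in mouse 6 and lowest in mouse 2. For Mfge8 they were Rnf215, Rfc2 and Tctn2, with gaps of 0.08 each around small differences. The order is a description over 6 mice, in which all genes share the same libraries, and it carries no test.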

How the data were processed

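Both retinas of 6 mice were sequenced by the authors as stranded, poly(A)-selected RNA libraries (2 × 50 bp reads). Per the study's methods, reads were counted on exons of RefSeq genes with HOMER, while the submitters' processing notes per the labels list TopHat2, Bowtie2, Cufflinks and Cuffdiff and the genome mm10, without versions or roles. The deposited table holds FPKM values, a unit that is not stated with it and was inferred: low values times transcript length were multiples of 1 step within a library. Between 79.6% and 86.2% of such values lay within 0.15 of a whole number of fragments (3618 genes with transcripts of at least 1500 bases, 170 bases subtracted), and the step gave the depth. The table gives no counts, so intervals of single values were not computed. No column was left unused.

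The fit used limma 3.58.1 (R 4.3.3) on log2(FPKM + 1), with 4 group means over all 12 libraries, the variance trend, and Benjamini-Hochberg adjustment over 18509 genes (5831 of 24340 rows were 0 throughout). Calls needed an adjusted p under 0.05. The methods name no test for these data, and a test on counts would have been used had counts been given. The mice link the eyes: mouse numbers in the labels mark the same animal. Deviations of both eyes from their group means correlated at -0.12, 0.13, 0.21, 0.39, 0.17 and 0.10 in mice 1 to 6 (12910 genes). The p-values measure the spread between retinas of 3 mice per group.

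The members, lists and tests were chosen with earlier results of these data known. All members are named in each comparison. From each pathway list the text names up to 4 called genes with the smallest adjusted p in the averaged IOP comparison and the 2 most abundant. For Fcer1g, Axl, Mertk and Mfge8 it names the 3 genes with the nearest differences between the eyes, and for marker lists the sums. Other marker lists (Mueller glia, endothelium and pericytes, red blood cells) were summed too, at 2481 to 3823, 20.9 to 70.5 and 25.6 to 524 FPKM per library. Promoter sequences and coordinates came from RefSeq on GRCm38.p6, and all 10 genes matched by symbol. The alternatives were: a smaller pseudocount (0.1); genes limited to those with 1 FPKM or more in 3 libraries; a fit on the compared groups alone; a block for the mouse; thresholds of 0.1 on the adjusted and 0.05 on the unadjusted p; limma without the trend; scaling by median ratios; and leaving out each library or mouse. Tables and plots were made in Python 3.11.15 (numpy 2.4.6, pandas 2.3.3, matplotlib 3.10.9).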

Additional observations from a re-analysis of the deposited data

How the results depend on the processing

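Ranges with a library or mouse left out cover those of the groups compared. The 7 averaged calls among the 10 genes held with the mouse as a block, a pseudocount of 0.1, no variance trend, median-ratio scaling and any single library left out; without both eyes of a mouse, 5 to 7 were called. Over all genes the averaged comparison called 2258 genes, 1351 with the mouse as a replicate block, 4131 at an adjusted p under 0.1, 5611 at an unadjusted p under 0.05, and 529 to 4515 with a library or mouse left out. Without GCV, 306 genes and 3 members were called: 75 and 0 with the block, 464 and 5 with a pseudocount of 0.1, 607 and 5 at an adjusted p under 0.1, 3501 and 9 unadjusted, and 9 to 2490 and 0 to 5 with a library or mouse left out. With GCV, 334 genes and 4 members were called: 144 genes with the block, 92 and 0 from the groups compared alone, 535 and 7 with a pseudocount of 0.1, 780 and 7 at an adjusted p under 0.1, 3547 and 7 unadjusted, 7 members with the filter (which Fcgr1 and Fcgr4 pass mainly through the IOP retinas, so that it is no check of them), and 33 to 716 and 0 to 7 with a library or mouse left out. Apart from the calls given in the report, the block changed no call of a member.

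In the interaction, and between GCV and no GCV in IOP or control retinas, 0 genes were called, 358, 774 and 295 unadjusted, 0 to 3, 0 to 4 and 0 to 4 with a library or mouse left out, and in control retinas 1 from the groups compared alone and 1 with a pseudocount of 0.1. No member was called in any of them.

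Leaving out a library or mouse reversed the sign of some log2 fold changes that had not passed the test. For IOP these were Mfge8 without GCV (-0.22 to 0.16) and, with GCV, Mertk (-0.19 to 0.53) and Gas6 (-0.21 to 0.073). For the interaction they were Fcgr1 (-0.067 to 0.74), Fcgr3 (-0.041 to 1.04), Fcgr2b (-0.48 to 1.09), Fcer1g (-0.85 to 0.84), Axl (-0.00028 to 0.79) and Pros1 (-0.028 to 0.29). For GCV in IOP retinas they were Fcgr2b (-0.37 to 1.19), Fcer1g (-0.72 to 0.97), Mertk (-0.57 to 0.080) and Mfge8 (-0.030 to 0.35), and in control retinas Fcgr1 (-0.13 to 0.38), Fcgr3 (-0.085 to 0.42), Fcgr4 (-0.0063 to 0.36), Fcgr2b (-0.10 to 0.42), Fcer1g (-0.29 to 0.72), Axl (-0.15 to 0.064) and Pros1 (-0.014 to 0.072). The causes of these shifts were not tested. Under about 1 FPKM, where Fcgr1 and Fcgr4 lay in most control retinas, values rest on few fragments, so depth limits what can be said of their level without IOP elevation.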
